A study of Mus musculus with 6 samples.

Results

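Cathepsins are the proteases of the lysosome, the acidic compartment in which cells break down proteins, and cystatin C is a secreted protein that blocks the cysteine cathepsins. The 9 cathepsin genes Ctsa, Ctsb, Ctsc, Ctsd, Ctsh, Ctsk, Ctsl, Ctss and Ctsz and the inhibitor gene Cst3 were taken by symbol from the count table. All 10 were among its 23867 genes and among the 15028 genes that passed the filter on low counts. The libraries were bulk RNA of mouse chondrocytes, the cells of cartilage, with 3 of the genotype labelled MFN2Col2a1-/- and 3 of that labelled MFN2wt. The knockout label joins the mitochondrial fusion gene Mfn2 to Col2a1, a cartilage collagen gene; its libraries carry the names CRE1 to CRE3 and those of the wild type WT1 to WT3. The labels give no age, treatment, strain or Cre line. They also do not say whether libraries within a group stem from different animals or cultures, so each p reflects the spread among these libraries alone, which may be technical. Totals ran from 31481779 to 37814723 counts in knockout libraries and from 39267487 to 40152687 counts in wild-type libraries. Mfn2 itself had 64.0, 56.5 and 59.4 CPM (counts scaled to library size) in CRE1 to CRE3, against 107.7, 107.8 and 106 CPM in WT1 to WT3, a log2 fold change of −0.84 (edgeR adjusted p = 2.24e-10), so its transcript was lower but present.

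Most cathepsins are papain-like cysteine proteases, while cathepsin D is an aspartic and cathepsin A a serine protease. They reach the lysosome as inactive precursors, mainly by the mannose 6-phosphate route, and are cut to their active forms in acid. In joints, cathepsins also leave the cell and cut matrix, and cathepsin K is known for cleaving the collagen triple helix. Some members, cathepsin S above all, are known chiefly from macrophages and other antigen-presenting cells. From such background the members were sorted into 6 broadly expressed genes (Ctsa, Ctsb, Ctsd, Ctsk, Ctsl and Cst3) and 4 macrophage-enriched genes (Ctsc, Ctsh, Ctss and Ctsz).

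Ctss and Ctsk lie next to each other on mouse chromosome 3, on the plus strand, with no coding gene annotated between them, and Ctsd lies on chromosome 7. The 250 bases before the start of these 3 genes are shown because the first fell the most of all members, the second is its neighbour and was not called, and the third is the most abundant cathepsin. The sequences are RefSeq's for GRCm38.p6, an earlier build than the GRCm39 named for the counts. They cover chr3:95526536-95526785 (plus strand), chr3:95498960-95499209 (plus strand) and chr7:142387828-142388077 (minus strand). Each runs 5′ to 3′, with letters that match a searched motif in capitals.
Ctss: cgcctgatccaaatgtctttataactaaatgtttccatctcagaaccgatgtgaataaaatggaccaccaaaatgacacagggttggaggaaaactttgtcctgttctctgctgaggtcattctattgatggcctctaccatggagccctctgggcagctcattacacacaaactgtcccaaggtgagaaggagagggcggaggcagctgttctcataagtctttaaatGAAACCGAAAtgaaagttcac
Ctsk: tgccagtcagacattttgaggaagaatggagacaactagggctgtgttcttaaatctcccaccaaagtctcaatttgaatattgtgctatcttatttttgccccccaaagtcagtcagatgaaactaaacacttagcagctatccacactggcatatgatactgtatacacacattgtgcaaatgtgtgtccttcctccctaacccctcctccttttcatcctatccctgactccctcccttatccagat
Ctsd: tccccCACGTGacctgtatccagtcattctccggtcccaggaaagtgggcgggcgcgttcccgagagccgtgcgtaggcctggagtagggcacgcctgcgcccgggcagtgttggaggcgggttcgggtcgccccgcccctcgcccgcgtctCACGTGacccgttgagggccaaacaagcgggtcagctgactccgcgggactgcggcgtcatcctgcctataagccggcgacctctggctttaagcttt

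The motifs were searched on both strands, and no matches overlapped each other in the sequences shown. They were the E-box core CACGTG, which the lysosomal regulator TFEB and its relatives can bind, the ETS core GGAAGT, the AP-1 site TGANTCA and the interferon-response core (GAAA, any pair of bases, GAAA). RefSeq windows were found for 8 of the 10 members, with Ctsa having a pair of start sites. CACGTG occurred 2 times before Ctsd and 1 time each before Ctsl and the downstream start of Ctsa, while 6.02% of all 32851 windows of the same length held it. The interferon-response core occurred before Ctss as GAAACCGAAA, 21 to 12 bases before the start, and 2.98% of windows held it. GGAAGT or its reverse complement occurred before Ctsc and the downstream start of Ctsa, against 19.7% of windows. TGANTCA occurred before none of them, against 6.75% of windows. A match describes letters only.

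Between the groups 4 members rose and 4 fell in knockout cells, and Ctsk and Cst3 were not called. A gene was called when its p, from the quasi-likelihood test of edgeR with Benjamini-Hochberg adjustment over all tested genes, was under 0.05. Of all tested genes 62.7% were called, 30.7% higher and 32.1% lower in knockout cells, so the counts of members stand near that background. With library totals in place of TMM scaling, 1 member was called higher and 6 lower. Under that scaling 2789 of the 15028 tested genes were called higher and 7627 lower, so the background shifted as well. The members' median log2 fold change was 0.063, against −0.021 over all genes. Of the 6 broadly expressed members 2 rose and 2 fell (median 0.063), and of the 4 macrophage-enriched ones 2 rose and 2 fell (median −1.18). The size of the changes differed far more than their number, from a 12.6-fold fall to a 1.29-fold rise. The libraries of the groups did not overlap in 8 members, where 67.1% of all tested genes had no overlap.

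**Figure D1:**
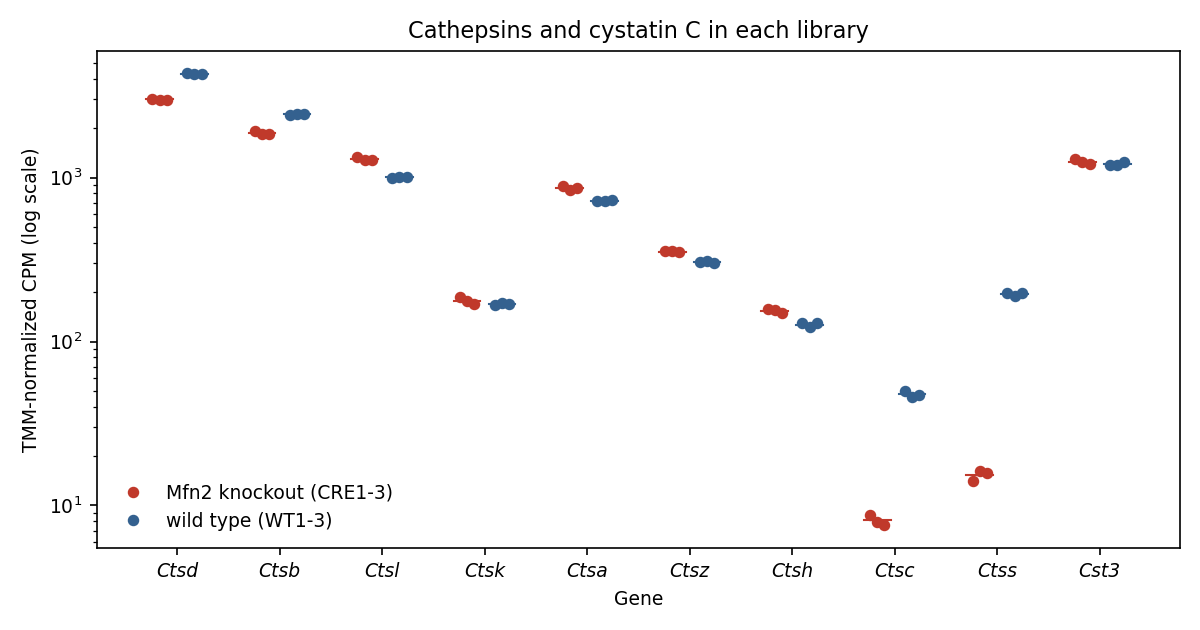
Levels of the 10 genes in each library, as CPM scaled by the trimmed mean of M-values (TMM) on a log axis. Points are libraries and short lines are group means, with the knockout left of the wild type. Ctss and Ctsc stand apart between the groups, and the other genes differ by less than 1.5-fold.

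Cathepsin S, an endopeptidase that stays active near neutral pH and trims the invariant chain of class II antigen presentation, fell the most. Its TMM-normalized level was 14.2, 16.2 and 15.9 CPM in the CRE libraries, against 199, 190.1 and 197 CPM in the WT libraries. The knockout libraries lay far below every wild-type library. The means were 15.4 ± 1.07 CPM in knockout cells and 195 ± 4.65 CPM in wild-type cells (SD, n = 3 each, as for all SDs here), a log2 fold change of −3.66 (SE 0.051, 95% interval −3.77 to −3.55, edgeR adjusted p = 1.60e-17). Of all tested genes, 2.32% were called at least 10-fold lower, and Ctss was among them.

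Cathepsin C, a dipeptidyl peptidase that activates the granule proteases of neutrophils and other immune cells, was the other member with a large fall. It stood at 8.80, 7.94 and 7.58 CPM in the knockout libraries, against 50.04, 45.6 and 47.4 CPM in the wild-type libraries, with no overlap. The log2 fold change was −2.56 (SE 0.069, edgeR adjusted p = 3.26e-14), a 5.89-fold difference. It was the least abundant member in both groups, and its lowest raw count in any library was 228.

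The remaining macrophage-enriched members did not fall. Cathepsin H, an aminopeptidase, stood at 158, 155 and 148 CPM in knockout cells, against 129, 122 and 129 CPM in wild-type cells, a log2 fold change of 0.28 (SE 0.038, edgeR adjusted p = 1.14e-05). Cathepsin Z, a carboxypeptidase also called cathepsin X, stood at 357, 354 and 349 CPM in knockout cells, against 305, 311 and 303 CPM in wild-type cells (log2 fold change 0.21, SE 0.028, edgeR adjusted p = 1.05e-05). Each knockout library lay above each wild-type library for these 2 genes on this scale. With library totals in place of TMM neither passed the test: Ctsh had a log2 fold change of 0.068 (adjusted p = 0.118) and Ctsz one of −0.0022 (adjusted p = 0.945).

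Among the broadly expressed members, the abundant proteases cathepsin D and cathepsin B fell. Cathepsin D, the main aspartic protease of the lysosome, stood at 3025, 2982 and 2982 CPM in knockout cells, against 4325, 4296 and 4298 CPM in wild-type cells. Its log2 fold change was −0.52 (SE 0.020, 95% interval −0.57 to −0.48, edgeR adjusted p = 2.57e-12). Cathepsin B, which cuts both within chains and from their ends, stood at 1936, 1852 and 1849 CPM in knockout cells, against 2417, 2449 and 2442 CPM in wild-type cells (log2 fold change −0.37, SE 0.024, edgeR adjusted p = 1.53e-09). In both genes the groups were well separated, and the falls were called under each of the 17 other settings.

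Cathepsin L, an endopeptidase related to cathepsins K and S, rose. It stood at 1329, 1277 and 1280.2 CPM in knockout cells, against 992, 1014 and 1003 CPM in wild-type cells, a log2 fold change of 0.37 (SE 0.025, 95% interval 0.32 to 0.42, edgeR adjusted p = 3.18e-09). It was the sole member called higher under every setting, with its lowest value, 0.16, on log2(FPKM + 1). Cathepsin A, a serine carboxypeptidase that also shields β-galactosidase and neuraminidase in the lysosome, stood at 883, 839 and 862 CPM in knockout cells, against 722, 718 and 729 CPM in wild-type cells. Its log2 fold change was 0.25 (SE 0.026, edgeR adjusted p = 5.80e-07), but 0.043 with library totals alone (adjusted p = 0.129).

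Cathepsin K, the collagen-cleaving member best known from osteoclasts, overlapped between the groups. It stood at 188, 176 and 169 CPM in knockout cells, against 167, 171 and 168 CPM in wild-type cells (log2 fold change 0.074, 95% interval −0.0084 to 0.16, edgeR adjusted p = 0.108). Cystatin C also overlapped, with 1307, 1238 and 1211 CPM in knockout cells, against 1192, 1186 and 1247 CPM in wild-type cells (log2 fold change 0.051, 95% interval −0.014 to 0.12, edgeR adjusted p = 0.160). The intervals cover the replicate spread, not the scaling. The sign of both depended on the scaling. With upper-quartile factors Ctsk was at −0.017 and Cst3 at −0.039, neither called, and with library totals alone both were called lower, Ctsk at −0.14 (adjusted p = 0.00507) and Cst3 at −0.16 (adjusted p = 2.30e-04). Without CRE3, Ctsk was called higher (0.12, adjusted p = 0.0270).

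**Figure D2:**
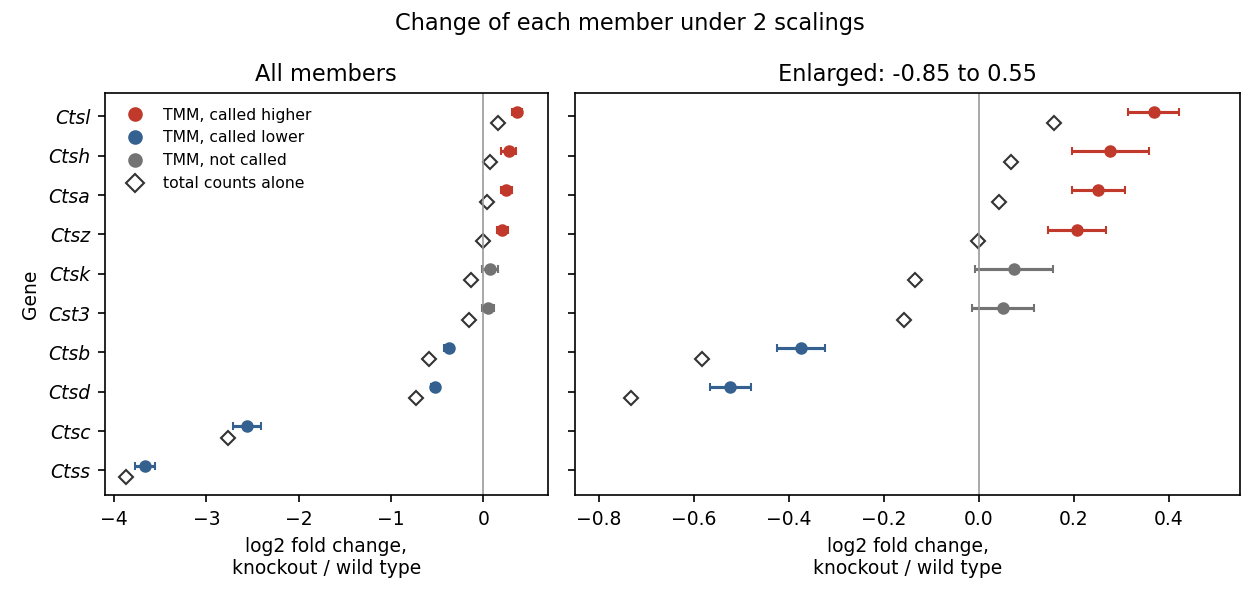
Log2 fold change, knockout over wild type, of each gene. Circles with 95% intervals use TMM factors (red called higher, blue called lower, grey not called) and open diamonds use library totals alone, with the range near 0 enlarged on the right. The diamonds lie about 0.21 lower, which takes Ctsz, Ctsk and Cst3 across 0 but leaves Ctss, Ctsc, Ctsd and Ctsb below it and Ctsl above it.

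Library totals in place of TMM moved the median change over all tested genes by −0.209 on the log2 scale. Under library totals the sole member called higher was Ctsl. Ratios between members of the same library are free of this choice, and the following values use the authors' FPKM, which also correct for gene length.

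Per length, cathepsin D and cystatin C were the most abundant members by a wide margin. This order rests on the single length per gene behind the FPKM, such as 796 bases for Cst3 and 4743 bases for Ctsb. By CPM in knockout cells, Ctsb (1879) and Ctsl (1295) stood above Cst3 (1252). The shares and ratios below rest on the same lengths. In the knockout Cst3 had 1463 ± 52.6 FPKM and Ctsd 1454 ± 6.97 FPKM, and these neighbours in the order overlapped between libraries. In the wild type Ctsd had 2415 ± 5.61 FPKM and Cst3 1632 ± 47.8 FPKM, without overlap. Below them in knockout cells came Ctsb (368 FPKM), Ctsl (337), Ctsz (228), Ctsa (218), Ctsk (104), Ctsh (85.6), Ctss (9.89) and Ctsc (1.40), each apart from the next in all libraries. The lysosomal cysteine proteases thus came after the aspartic protease and the inhibitor. In the wild type the order was Ctsb (552 FPKM), Ctsl (302), Ctsz (229), Ctsa (212), Ctss (145), Ctsk (115), Ctsh (81.6) and Ctsc (9.51), again with no overlap between neighbours. Ctss thus stood above Ctsk and Ctsh in wild-type cells and below both in knockout cells.

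The make-up of the cathepsin transcript pool differed between the groups. Ctsd made up 51.8% ± 0.353 of the summed FPKM of the 9 cathepsins in knockout cells and 59.5% ± 0.153 in wild-type cells. Ctsl made up 12% ± 0.091 in knockout cells and 7.43% ± 0.089 in wild-type cells, while Ctss made up 0.352% ± 0.029 in knockout cells and 3.57% ± 0.082 in wild-type cells. The shares of Ctsa, Ctsz, Ctsk and Ctsh were larger in knockout cells, by 1.32 to 1.52 times, and that of Ctsb was slightly smaller (13.1% ± 0.144 in knockout cells and 13.6% ± 0.109 in wild-type cells). Knockout and wild-type libraries did not overlap in the share of any of the 9 cathepsins, and no such figure was made for other genes. All shares are tied to the same sum, which was lower in knockout cells, so a share can be larger without a rise of its gene. Ctsz had 228 FPKM in knockout cells and 229 FPKM in wild-type cells, and Ctsk had 104 FPKM in knockout cells and 115 FPKM in wild-type cells. The 4 macrophage-enriched members together held 11.6% ± 0.128 of the pool in knockout cells and 11.4% ± 0.086 in wild-type cells, with overlap between the groups. Within that sum Ctsz (8.14% in knockout cells, 5.63% in wild-type cells) and Ctsh (3.05% in knockout cells, 2.01% in wild-type cells) had larger shares. Ctss and Ctsc had smaller ones. The name of this group comes from background, and the cells of origin of these transcripts were not tested. The summed cathepsin FPKM was 2806 ± 30.3 in knockout cells and 4060 ± 3.69 in wild-type cells, a ratio of 0.691, or 0.799 once TMM factors were applied.

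**Figure D3:**
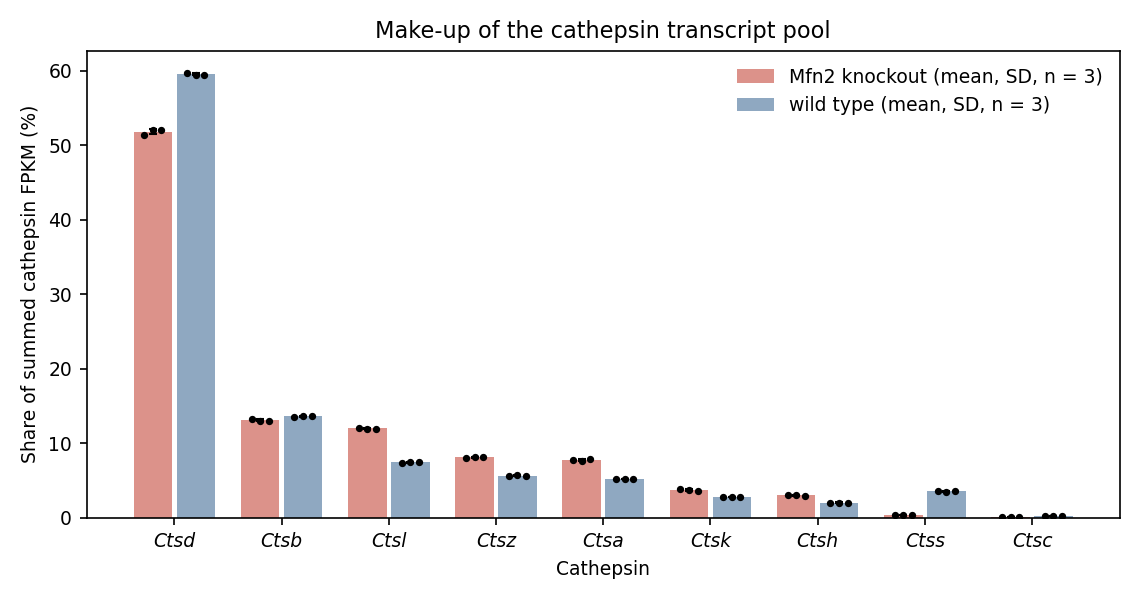
Share of each cathepsin in the summed FPKM of the 9 cathepsins, in percent. Bars are means of 3 libraries with SD, dots are libraries, and the knockout is left of the wild type. Ctsd stands at 51.8% in knockout cells, against 59.5% in wild-type cells, while Ctsl stands at 12% in knockout cells, against 7.43% in wild-type cells.

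Ratios between single members differed far more between the groups than within them. The ratio of Ctsl to Ctsb transcripts, in FPKM, was 0.914 ± 0.0039 in knockout cells and 0.546 ± 0.0027 in wild-type cells. The ratio of Ctsk to its neighbour Ctss was 10.6 ± 1.30 in knockout cells and 0.791 ± 0.029 in wild-type cells. Cst3, the inhibitor, stood at 1.31, 1.29 and 1.27 times the summed cysteine cathepsins in the CRE libraries, against 1.13, 1.11 and 1.17 times in the WT libraries. The inhibitor transcript was thus higher relative to this sum in each knockout library, although its own FPKM was lower there (1463 in knockout cells, 1632 in wild-type cells). The sum was 1135 ± 21.7 FPKM in knockout cells and 1433 ± 6.41 FPKM in wild-type cells. It includes Ctss (9.89 FPKM in knockout cells, 145 FPKM in wild-type cells) and leaves out Ctsf and Ctso. Whether the difference holds without Ctss was not tested. These are transcript ratios, and no activity was measured.

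Macrophage markers moved in the same direction as Ctss and Ctsc in these libraries. All 18 listed markers were called lower in knockout cells, beside 32.1% of all tested genes. Their median was −4.36 on the log2 scale, with a range of −6.32 to −1.39, and none was at 0 in a whole group. Their summed level was 371 to 386 CPM in knockout cells and 3454 to 3472 CPM in wild-type cells, a 9.15-fold difference. Lyz2, a lysozyme and the most abundant of them, had 229 ± 9.26 CPM in knockout cells and 1747 ± 24.9 CPM in wild-type cells. In bulk RNA, fewer cells of a type and less RNA per cell cannot be told apart, and the part of macrophage RNA in the falls of the cathepsins was not tested. Per 1000 CPM of summed macrophage markers, Ctss had 40.8 ± 3.51 CPM in knockout cells and 56.4 ± 1.23 CPM in wild-type cells, and Ctsc had 21.4 ± 1.22 CPM in knockout cells and 13.8 ± 0.603 CPM in wild-type cells. Measured this way Ctss was lower and Ctsc was higher in every knockout library. The sum is weighted towards Lyz2, which fell 7.65-fold, less than the 12.6-fold of Ctss. The median marker fell more than Ctss (−4.36 against −3.66 on the log2 scale), so the direction for Ctss depends on the markers used. The other 8 members came out 6.37 to 11.8 times higher in knockout cells. Their own CPM changed far less, so these ratios mainly restate the 9.15-fold fall of the divisor.

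Markers of the labelled cell type were present in both groups and lower in knockout cells. All 12 chondrocyte markers were called lower, beside 32.1% of all tested genes. Their summed level was 3064 ± 72.9 CPM in knockout cells and 8813 ± 99.7 CPM in wild-type cells. Col2a1 stood at 509 ± 29.0 CPM in knockout cells and 3395 ± 71.3 CPM in wild-type cells. Fibroblast markers summed to 29021 ± 495 CPM in knockout cells and 22350.4 ± 109 CPM in wild-type cells. Of the 10, 5 were higher and 3 lower, beside 30.7% and 32.1% of all tested genes. The collagen Col3a1, with the highest mean level of them over both groups, had 9774 CPM in knockout cells and 5936 CPM in wild-type cells. Of the 3 lower ones, Col1a2 had 4866 CPM in knockout cells and 7602 CPM in wild-type cells (log2 fold change −0.64, edgeR adjusted p = 1.38e-12). Thy1 (−0.47) and Pdgfra (−0.091, a call kept in 14 of 17 other settings) also fell, and Col1a1 was not called. Osteoclast markers summed to 52.2 ± 2.60 CPM in knockout cells and 81.7 ± 0.872 CPM in wild-type cells, with 3 of 7 tested markers higher and 3 lower. Acp5 (7.86 CPM in knockout cells, 5.07 CPM in wild-type cells), Itgb3 (20.1 and 12.8 CPM) and Mmp9 (0.447 and 0.109 CPM) were higher. Atp6v0d2, also enriched in macrophages (1.35 and 21.7 CPM), Tnfrsf11a (0.132 and 11.2 CPM) and Nfatc1 (21.5 and 30.4 CPM) were lower. The Acp5 call was kept in 16 of 17 other settings. Of the 10 listed, 5 stayed below 1 CPM in all libraries and Dcstamp, a fusion gene of osteoclasts, was at 0 in each knockout library and at or near 0 in each wild-type library. Neutrophil markers summed to 6.53 ± 0.390 CPM in knockout cells and 1.78 ± 0.181 CPM in wild-type cells, with 2 of 4 tested markers higher and 1 lower. Of the 9 listed, 6 stayed below 1 CPM in all libraries, and the knockout sum rests mainly on the 2 higher markers. The most abundant, Camp, had 3.48 ± 0.441 CPM in knockout cells and 0.179 ± 0.034 CPM in wild-type cells. The lower one, Csf3r, had 0.281 ± 0.084 CPM in knockout cells and 0.983 ± 0.137 CPM in wild-type cells. Lymphocyte and NK markers were below 0.2 CPM in sum. The parts of these other shifts in the cathepsin levels were not tested.

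**Figure D4:**
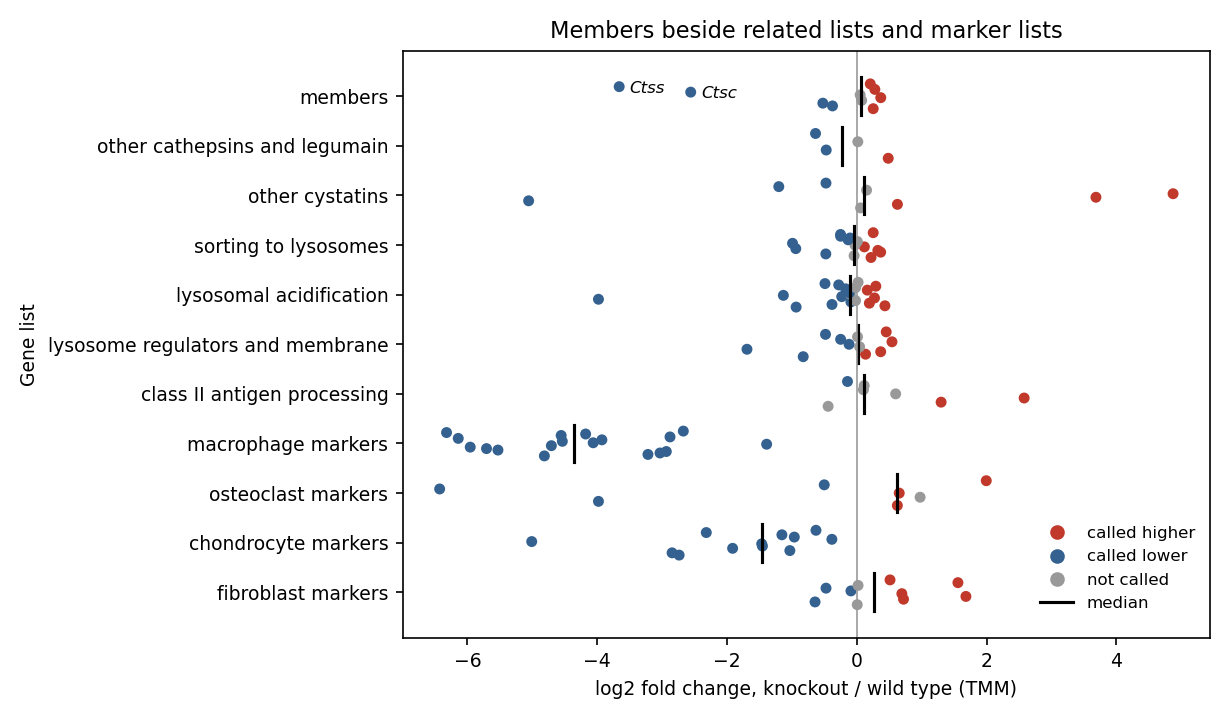
Log2 fold changes, knockout over wild type with TMM factors, of the tested genes in each list (rows). Each point is a gene (red called higher, blue called lower, grey not called) and black lines are list medians. The members cluster near 0 apart from Ctss and Ctsc. These lie within the ranges of the macrophage, chondrocyte and osteoclast markers alike, and of the other cystatins and the acidification genes.

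Other cathepsins were few in these cells. Of 14 further cathepsin genes and Lgmn, 8 were in the table and 4 were tested. Lgmn, the asparaginyl protease that cuts several cathepsins to their mature chains, had 188 ± 0.863 CPM in knockout cells and 292 ± 6.16 CPM in wild-type cells (log2 fold change −0.64, SE 0.031, edgeR adjusted p = 4.19e-11). Ctsf rose (0.48, adjusted p = 7.70e-09), with 139.5 ± 3.02 CPM in knockout cells and 99.8 ± 0.60 CPM in wild-type cells, and Ctso fell (−0.47, adjusted p = 1.58e-05). These 3 calls kept their direction and threshold under every setting.

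Of 21 other genes of the cystatin superfamily, 8 were tested, of which 3 rose and 3 fell (37.5% each), beside 30.7% and 32.1% of all tested genes. Cst6, an inhibitor of legumain and of some cathepsins, had 18.01 ± 0.979 CPM in knockout cells and 11.7 ± 0.580 CPM in wild-type cells (log2 fold change 0.63, edgeR adjusted p = 3.76e-06). Kng1, a kininogen with cystatin domains, fell (−1.20, adjusted p = 2.49e-08). Csta2 and Stfa3, cytosolic stefins with close copies whose separate counts are uncertain, rose but stayed below 1.2 CPM in every library. The remaining falls were those of Kng2 and of Cst7, which was below 1 CPM throughout. Cstb, the widely expressed stefin B, had 106 ± 3.43 CPM in knockout cells and 102 ± 3.75 CPM in wild-type cells and was not called.

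Of 15 genes of the route that carries cathepsins to lysosomes, 5 (33.3%) were called higher and 7 (46.7%) lower, beside 30.7% and 32.1% of all tested genes, with a median of −0.042 on the log2 scale. DESeq2 called 5 higher and 5 lower, as did edgeR when any library other than WT3 was left out. The small mannose 6-phosphate receptor M6pr rose to 213 ± 3.66 CPM in knockout cells, against 165 ± 0.185 CPM in wild-type cells (log2 fold change 0.37, edgeR adjusted p = 5.14e-08). The adaptor Gga2 (−0.99, adjusted p = 1.57e-11) and the sorting receptor Sort1 (−0.94, adjusted p = 2.34e-09) fell. The other rises were Gnptab (0.22), which makes the mannose 6-phosphate tag, the large receptor Igf2r (0.32), Vps29 (0.25) and Psap (0.12). With library totals alone the list held 2 rises and 11 falls, beside 2789 rises and 7627 falls among all 15028 tested genes, and Psap turned to −0.093.

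Of 20 genes for subunits of the proton pump that acidifies lysosomes and for the chloride exchanger with its partner, 5 (25%) were called higher and 11 (55%) lower, beside 30.7% and 32.1% of all tested genes, with a median of −0.11 on the log2 scale. DESeq2 called 5 higher and 9 lower, 8 were lower without CRE3, and the difference from other genes was not tested. Atp6v1b2 had 96.4 ± 1.95 CPM in knockout cells and 211 ± 4.00 CPM in wild-type cells (log2 fold change −1.13, edgeR adjusted p = 1.65e-13), and Atp6v0a1 fell by 0.94 on the log2 scale (adjusted p = 4.00e-11). Atp6v0d2, a subunit enriched in osteoclasts and macrophages, had 1.35 ± 0.55 CPM in knockout cells and 21.7 ± 1.53 CPM in wild-type cells (−3.98, adjusted p = 6.39e-12). The rises were Atp6v0a2 (0.43), Atp6ap1 (0.29), Atp6v0e (0.27), Atp6v0b (0.19) and Atp6v1f (0.16). With library totals alone 2 rises and 15 falls were called, beside 2789 rises and 7627 falls among all 15028 tested genes. Atp6v0b was then at −0.016 and Atp6v1f at −0.048.

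In the list of lysosomal regulators and membrane proteins, 4 of 11 (36.4%) rose and 5 (45.5%) fell, beside 30.7% and 32.1% of all tested genes. Cd63, a tetraspanin of late endosomes, rose (log2 fold change 0.54, edgeR adjusted p = 6.94e-10), as did the cholesterol carrier Npc2 (0.45, adjusted p = 1.36e-09), while its partner Npc1 fell (−0.48, adjusted p = 5.50e-08). The transcription factor Tfeb had 4.27 ± 0.073 CPM in knockout cells and 7.57 ± 0.490 CPM in wild-type cells (−0.83, adjusted p = 1.49e-05). Its relative Mitf rose (0.37, not called on log2(FPKM + 1) without a filter), and Tfe3 was called higher with TMM factors (0.13, adjusted p = 0.0205). That call was lost with upper-quartile factors (0.044) and without CRE2, WT1 or WT3, and Tfe3 was at −0.074 with library totals alone. Of the partners of cathepsin A, Neu1 fell (−0.53, adjusted p = 1.22e-06) and Galns fell (−0.19, adjusted p = 0.0185, lost with DESeq2 or without CRE2, CRE3, WT1 or WT3), while Glb1 was not called (0.081, adjusted p = 0.0690). Glb1 was called higher with DESeq2 size factors in edgeR (0.095, adjusted p = 0.0448) and without CRE2 (0.11, adjusted p = 0.0378), and lower with library totals alone (−0.13).

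Genes on the substrate side of Ctss and Ctsc were few. Of 7 tested genes of class II antigen processing, 2 (28.6%) rose and 1 (14.3%) fell, beside 30.7% and 32.1% of all tested genes. H2-Ab1 rose to 217 ± 9.23 CPM in knockout cells, against 36.3 ± 2.40 CPM in wild-type cells (log2 fold change 2.58, SE 0.050, edgeR adjusted p = 5.75e-16), whereas Cd74, the invariant chain that Ctss trims, stood at 1.69 ± 0.640 CPM in knockout cells and 2.31 ± 0.376 CPM in wild-type cells and was not called. H2-Aa also rose (1.30, adjusted p = 0.0206) at under 1 CPM, and Ifi30 fell (−0.14, adjusted p = 0.0225), but neither call was secure. H2-Aa was not called without CRE3, WT1 or WT2 or on log2(FPKM + 1) without a filter, and Ifi30 was not called with DESeq2 or without CRE2, CRE3 or WT3. Of the granule proteases that Ctsc activates, Prtn3 alone was tested and rose (4.24, adjusted p = 1.40e-07), at 2.27 ± 0.625 CPM in knockout cells and 0.117 ± 0.023 CPM in wild-type cells.

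The genes most like 3 of the members were sought among 9570 tested genes with a mean log2 CPM of at least 3, by the Euclidean distance of mean-centred log2 CPM over the 6 libraries. Nearest to Ctss were the bone sialoprotein Ibsp (distance 0.16, log2 fold change −3.63), Kctd12 (0.16, −3.68) and the myeloid receptor Lilrb4a (0.21, −3.51). Nearest to Ctsk were Wfs1 (0.034), Tnip1 (0.039) and Polr2g (0.041), and nearest to Cst3 were Rpl13a (0.024), Clint1 (0.037) and Rpl27a (0.038), none of them called. The 6 points of each profile come from 2 groups, which overlapped for Ctsk and Cst3. Nearness to these 2 genes thus reflects a flat profile and variation between single libraries.

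Several members share sequence with annotated neighbours in GENCODE M21, an annotation of the earlier build. Ctsa overlaps Pltp and Neurl2, Ctsb overlaps Fdft1, Ctsz overlaps Nelfcd, and Ctsl and Ctsc each overlap a predicted gene, all on the opposite strand, and whether the counting used strand is not given in the sources used here. Pltp had 65.2 ± 2.56 CPM in knockout cells and 107 ± 0.872 CPM in wild-type cells, well under the level of Ctsa. Fdft1 had 43.5 ± 1.83 CPM in knockout cells and 52.1 ± 0.390 CPM in wild-type cells, and Nelfcd had 28.7 ± 1.70 CPM in knockout cells and 24.0 ± 0.780 CPM in wild-type cells. Ctss, Ctsd, Ctsk, Ctsh and Cst3 overlap no annotated gene on the opposite strand, though Ctss overlaps a pseudogene and Ctsd a predicted gene on its own strand, as does Ctsl.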

How the data were processed

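Per the labels' protocols, chondrocyte RNA was isolated with TRIzol and libraries came from a VAHTS Universal V6 kit. Per the submitters' processing notes, fastp, HISAT2, HTSeq and GRCm39 were used, with no version or role stated. The authors deposited whole-number read counts per gene and FPKM for 23867 symbols in 6 columns. In all 11748 genes with a mean count of at least 100, dividing counts by library total and a single gene length gives the FPKM, within 0.1%. Wild-type columns match sample titles; columns CRE1 to CRE3 show the knockout group but not which sample, so nothing was paired. No pair of libraries within a group matched within sampling noise (chi-square over degrees of freedom 3.19 to 8.09).

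The test was that of edgeR 4.0.16 under R 4.3.3 (quasi-likelihood, two-sided, group alone, TMM, filterByExpr with a minimum count of 10), with Benjamini-Hochberg adjustment over 15028 genes. The SE is the log2 fold change divided by the square root of F. The biological coefficient of variation was 4.88%. The method was tested on simulated data. Alternatives used DESeq2 1.42.0, limma 3.58.1, other factors, filters and FPKM. The members, lists and motifs were chosen with earlier results of these data known. Named by rule were the 10 members, Mfn2, the 3 smallest p of each non-marker list, minority calls and the most abundant marker of a list. The 3 genes nearest to Ctss, Ctsk and Cst3 were also named by rule. Tfeb, Cd74, Cstb, Kng2, Cst7, Dcstamp, Tnfrsf11a, Col1a1 and the overlapping neighbours were chosen after their values were seen.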

Additional observations from a re-analysis of the deposited data

How the results depend on the processing

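Of 170 values of the members under 17 other settings, 147 kept their direction and side of the threshold, 8 kept the direction but lost the call, 1 gained it (Ctsk without CRE3) and 14 turned sign; Ctss, Ctsc, Ctsd, Ctsb and Ctsl kept theirs throughout. The turns came with upper-quartile factors, with library totals alone and with limma on FPKM, which is itself scaled by library totals; the cause was not tested. With upper-quartile factors the log2 fold changes were −0.017 for Ctsk, −0.039 for Cst3, −0.029 for Wfs1, −0.0027 for Tnip1, −0.0047 for Polr2g, −0.039 for Rpl13a, −0.030 for Clint1, −0.043 for Rpl27a and −0.0096 for Glb1, none called. With library totals the log2 fold changes were −0.14 for Ctsk, −0.16 for Cst3, −0.0022 for Ctsz, −0.15 for Wfs1, −0.12 for Tnip1, −0.12 for Polr2g, −0.16 for Rpl13a, −0.15 for Clint1, −0.16 for Rpl27a, −0.13 for Glb1, −0.093 for Psap, −0.016 for Atp6v0b, −0.048 for Atp6v1f and −0.074 for Tfe3. On log2(FPKM + 1), with or without the filter, they were −0.13 for Ctsk, −0.16 for Cst3, −0.0021 for Ctsz, −0.13 for Wfs1, −0.11 for Tnip1, −0.12 for Polr2g, −0.16 for Rpl13a, −0.14 for Clint1, −0.16 for Rpl27a, −0.12 for Glb1, −0.093 for Psap, −0.016 for Atp6v0b, −0.048 for Atp6v1f and −0.070 for Tfe3. On log2(FPKM + 0.1) they were −0.14 for Ctsk, −0.16 for Cst3, −0.0021 for Ctsz, −0.15 for Wfs1, −0.12 for Tnip1, −0.12 for Polr2g, −0.16 for Rpl13a, −0.15 for Clint1, −0.16 for Rpl27a, −0.13 for Glb1, −0.093 for Psap, −0.016 for Atp6v0b, −0.048 for Atp6v1f and −0.075 for Tfe3. With library totals and in the 3 FPKM settings 1 member was called higher, and over all genes 2789 were called higher and 7627 lower with library totals, 2321 higher on log2(FPKM + 1), 2679 higher without the filter and 2287 higher on log2(FPKM + 0.1), against 4607 higher and 4823 lower with TMM. Leaving out 1 library at a time gave 4 to 5 members higher and 4 lower, and 4264 to 4773 genes higher and 4396 to 4774 lower. Same-numbered libraries did not deviate together (correlations −0.086, 0.055 and −0.095), and a fit with the replicate number as a block called 4 members higher and 4 lower, with 4437 genes higher and 4657 lower. Ctsc had as few as 228 counts in a library, and genes below 1 CPM rest on far fewer.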
